A study of Mus musculus with 8 samples.

Results

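The endothelial cells examined here were found among the stromal cells of mouse colon assembloids, which are cultures that combine colon organoids with primary colon stromal cells in a droplet of basement membrane gel. A cell was taken as a member when it passed the cell filter (at least 500 genes detected and at most 10% of its UMIs, the counted mRNA molecules, from mitochondrial genes) and held at least 1 UMI of at least 3 of 6 genes: Pecam1, Cdh5 and Cldn5, which endothelial cells in general express, and Lyve1, Mmrn1 and Ccl21a, which mark lymphatic endothelium. This rule found 96 cells among the 18068 stromal cells that passed the filter, and these stromal cells are part of 77108 passing cells in all 8 libraries of the series. There were 25 members in replicate 1 and 71 members in replicate 2. The 2 stromal libraries are labelled as stromal cells of assembloids, derived from 2 C57BL/6 mice (male, 6 to 12 weeks old) per the methods, which do not name the mouse of each library. The labels give no drug, deletion or reporter for these libraries, and the medium of the assembloids lacked the Wnt activators and the BMP antagonist that sustain organoids alone. Per the methods, the organoid medium used for assembloids otherwise contained EGF and the compound A83-01. The stromal cells had been grown on plastic in medium with serum before they were combined with organoids, so that the members come from cells that went through a culture step without flow. The other 6 libraries held epithelial cells of assembloids, of organoids without stroma and of colon tissue, with 2 libraries for each.

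Endothelial cells line all vessels. Blood endothelium carries the circulation and depends on signals of the VEGF-A family through the receptors Kdr and Flt1, whereas lymphatic endothelium drains fluid, fat and immune cells, depends on VEGF-C acting through Flt4, and owes its identity to the transcription factor Prox1. In the gut wall, lymphatic vessels run beneath the crypts and are known as a source of the Wnt amplifier Rspo3 and of the secreted glycoprotein Reln, while blood capillaries form a plexus around the crypts.

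Replicate 1 held 9020 passing cells with a median of 15449 UMIs per cell, and replicate 2 held 9048 passing cells with a median of 13246 UMIs. The summed UMIs of the members were 399477 and 1530552. Members had a median of 14844 UMIs in replicate 1 and of 20996 UMIs in replicate 2, which stood at the 46.5th and 80.3rd percentile of the cells of their own library. The mitochondrial share had a median of 2.96% and 2.66% in members against 3.88% and 4.13% in the stromal cells left after members, glia and neurons were set apart. Epithelial RNA was present in these libraries, as 10.2% of those remaining cells held a UMI of Epcam. The 2 stromal libraries shared 30 cell barcodes, each of them shared between 13 and 88 with the epithelial libraries, and 1 member carried a barcode that was also found in another library. No doublets were removed.

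Members made up 0.277% of the passing cells of replicate 1 (exact binomial 95% interval 0.179 to 0.409%) and 0.785% of those of replicate 2 (0.613 to 0.989%). These intervals and all other limits given here cover counting error only, and do not overlap between the 2 libraries. Applied to the epithelial libraries, the same rule found 10 of 29410 cells and 9 of 7722 cells in the assembloid epithelium, and 0 cells in each of the organoid and tissue libraries. These libraries with 0 held between 4310 and 8034 passing cells each. Their upper 95% limits, between 0.0459 and 0.0856%, lie above the 0.034% of the assembloid epithelium of replicate 1, so that the 0 counts do not set them apart from it.

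**Figure D1:**
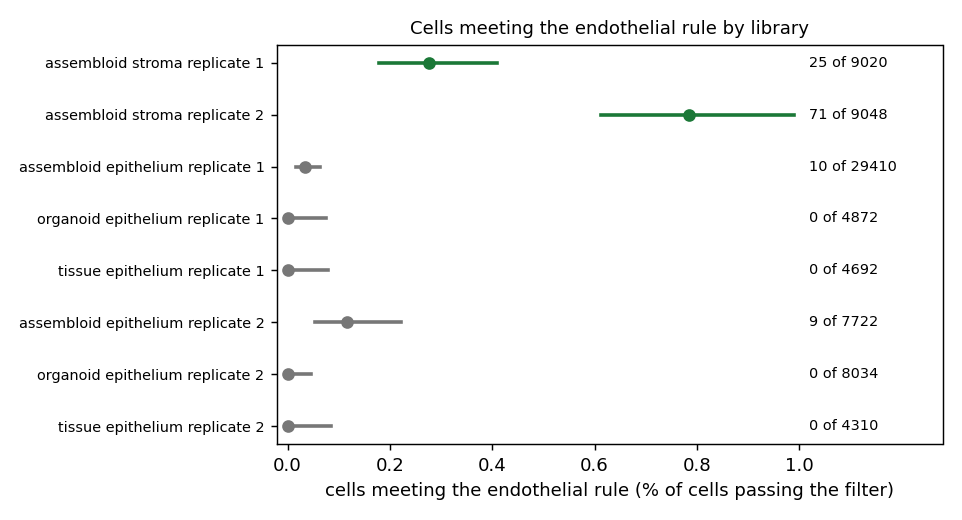
Share of cells meeting the endothelial rule in each of the 8 libraries, in percent of the cells passing the filter, with exact binomial 95% intervals as bars and the counts at the right. The 2 stromal libraries lie at 0.277% and 0.785%, and each of the 4 organoid and tissue libraries lies at 0.

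The label is described here with the rule genes and then with genes the rule did not use. The lists of the latter were chosen with earlier results of these data known, so that they are no independent check. The rule genes chose the members, and their levels are given as a description only. Levels of a class of cells are its summed UMIs in each library, scaled to a total of 1000000 UMIs (CPM). Pecam1, an adhesion molecule of endothelial junctions, stood at 238 CPM in the members of replicate 1 and 233 CPM in those of replicate 2, against 0.856 and 0.471 CPM in the remaining stromal cells. Ccl21a, a chemokine by which lymphatic vessels attract dendritic cells, stood at 1609.6 and 1916 CPM, against 0.302 and 1.04 CPM in the remaining cells. Of the 96 members, 93 held a UMI of Pecam1, 95 of the junction gene Cdh5, 95 of the tight junction gene Cldn5, 82 of the hyaluronan receptor Lyve1, 81 of Mmrn1 and 66 of Ccl21a. At the edge of the rule, 12 cells showed exactly 2 rule genes and were left out, whereas 14 cells showed exactly 3 and were taken in. Of 20 further endothelial genes, a median of 2.5 was detected in the former (range 0 to 14) and of 14 in the latter (range 7 to 17), and cells with no rule gene had a median of 1 (range 0 to 6).

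Clustering of all passing stromal cells with the rule genes removed gave 12 clusters, and 92 of the 96 members fell into 1 cluster of 102 cells, which held 27 cells of replicate 1 and 75 cells of replicate 2. The same 92 of 102 was found at a higher resolution and without integration of the libraries. The 10 other cells of this cluster had a median of 1 further endothelial gene (range 0 to 14). The 4 members outside it, 3 of replicate 1 and 1 of replicate 2, lay in the clusters numbered 0 and 2, and the fibroblast marker list took a median of 0.813% of their UMIs, compared to 0.0619% in the members inside.

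The members fell into a large lymphatic group and a small group in which many markers of blood vessels were detected. Grouped by the lymphatic rule genes alone, 82 members (20 in replicate 1 and 62 in replicate 2) held UMIs of 2 or 3 of Lyve1, Mmrn1 and Ccl21a, and 13 members (4 and 9) held none of them, which by the rule means that they held Pecam1, Cdh5 and Cldn5. A single cell of replicate 1 held 1. As the grouping uses the members' own readout, what follows describes the groups without a test.

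The UMIs of 16 lymphatic genes outside the rule and of 10 blood capillary genes separated the groups cell by cell. Lymphatic genes took between 12.0 and 219.8 of every 10000 UMIs in the 82 lymphatic members, with a median of 31.9, and between 0.420 and 6.94 in the 13 members without lymphatic rule genes, with a median of 3.29. Blood capillary genes took between 0 and 7.84 of every 10000 UMIs in the former (median 0.847) and between 9.91 and 64.8 in the latter (median 17.3). The groups did not overlap on either measure, and the single cell with 1 lymphatic rule gene lay with the lymphatic group at 45.5 and 1.75.

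**Figure D2:**
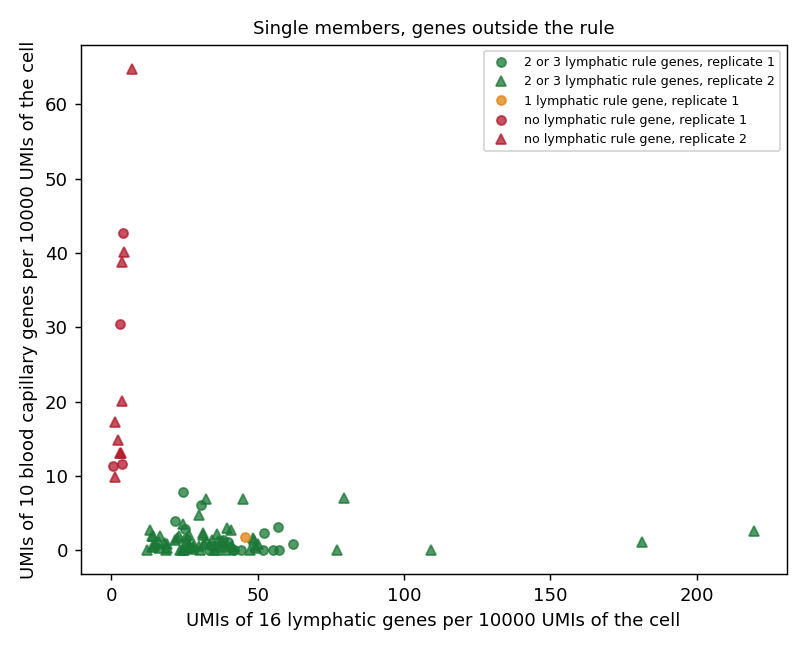
Each point is 1 of the 96 members, with the UMIs of 16 lymphatic genes (horizontal axis) and of 10 blood capillary genes (vertical axis) per 10000 UMIs of the cell, and none of these genes is part of the rule. The 13 members without a lymphatic rule gene lie at or below 6.94 on the horizontal axis and at or above 9.91 on the vertical axis, apart from all the others.

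In the lymphatic group, the genes of the lymphatic list ranged from detection in every cell (Nts and Stab1) to detection in 2 of 82 cells (Foxc2, a transcription factor of lymphatic valves) and in 0 (Ccl21b and Ccl21c). Prox1 (ENSMUSG00000010175, chr1:190118035-190170714, minus strand, GRCm38) held a UMI in 70 of 82 lymphatic members and in 1 of the 13 others, with 331 and 201 CPM in the lymphatic members of the 2 libraries and 0 and 7.36 CPM in the other group. In the remaining stromal cells 1.32% held a UMI of Prox1. Nts (chr10:102481756-102490486, minus strand), which encodes the peptide neurotensin, was detected in 82 of 82 lymphatic members, with between 1 and 133 UMIs and a median of 17 UMIs in a cell, and in 0 of the 13 others. A count of 0 among 13 cells allows a share of up to 23.1% of cells with a detected UMI, which is no limit on the share that expresses the gene. Nts reached 1286 and 963 CPM in the lymphatic members and was seen in 0.431% of the remaining cells.

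Further genes marked the lymphatic group in the same way. Reln was detected in 69, the transcription factor Tbx1 in 65 and the transcription factor Maf in 73 of 82 lymphatic members, and each of them in 0 of the 13 others. Maf was not particular to them, since 34.1% of the remaining stromal cells held a UMI. Flt4, the receptor of VEGF-C, was detected in 80 lymphatic members and in 4 of the others, at 264 and 313 against 47.9 and 14.7 CPM. The scavenger receptors split: Mrc1 was detected in 52 of 82 and 0 of 13, Stab1 in 82 of 82 and 9 of 13, and Stab2 in 9 of 82 and 0 of 13. Sema3a, a guidance cue, was seen in 59 of 82 and 3 of 13, and in 28.4% of the remaining cells. Gpr182 and Ackr2, receptors that take up chemokines, were seen in 29 and 33 lymphatic members and in 0 of the others.

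In the 13 members without lymphatic rule genes, several genes of blood vessels were detected in a larger share of cells than in the lymphatic members, although not all of them. Flt1 (chr5:147561604-147726011, minus strand), a receptor of VEGF-A, was detected in 12 of 13 of them, with a median of 3 and at most 20 UMIs in a cell, and in 2 of 82 lymphatic members. Its level was 463 and 316 CPM in this group against 0 and 1.43 CPM in the lymphatic members. Ly6c1 and Cd93, surface proteins of capillary endothelium, were found in 13 of 13, and in 5 and 8 of 82 lymphatic members. Ly6c1 was also seen in 20.3% of the remaining cells, whereas Cd93 was seen in 0.113%. Plvap, which forms the diaphragms of fenestrated capillaries, was detected in 11 of 13 and 24 of 82, and Gpihbp1, which holds lipoprotein lipase on capillaries, in 9 of 13 and 18 of 82. Kdr, the other receptor of VEGF-A, showed the opposite order, with UMIs in 5 of 13 and 76 of 82, at 63.9 and 58.9 CPM against 134 and 251 CPM in the lymphatic members. The capillary genes Aqp1 and Cd36 did not follow Flt1 either, with 1 and 0 of 13 against 15 and 1 of 82.

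Some arterial and sprouting genes were detected in this small group and others were not. Sox17, a transcription factor of arterial endothelium, held a UMI in 9 of 13 of these members, in 0 of 82 lymphatic members, which allows a share with a UMI of up to 3.66%, and in 0 of the 17630 remaining cells. Dll4, a Notch ligand of arteries and sprouts, was detected in 12 of 13 and 32 of 82. Esm1 and Cxcr4, known from the tip cells of growing capillaries, were found in 7 and 7 of 13, and in 0 and 2 of 82. The arterial connexin genes Gja4 and Gja5 were seen in 2 and 1 of 13 and in 0 of 82, Hey2 in 0 of both groups, and Bmx in 0 of 13 and 3 of 82. The tip cell gene Unc5b was detected in 5 of 13 and in 69 of 82, in the order opposite to Esm1. Angpt2, which destabilises vessels, was found in both groups, in 11 of 13 and 79 of 82.

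Signals to neighbouring cells also differed in where they were detected. Bmp2 (ENSMUSG00000027358, chr2:133552159-133562885, plus strand), a ligand of BMP receptors, was detected in 11 of 13 members without lymphatic rule genes and 5 of 82 lymphatic members, at 527 and 493 against 3.18 and 39.4 CPM. Pdgfb, which recruits pericytes, was found in 9 of 13 and 7 of 82, and Kitl, the ligand of Kit, in 11 of 13 and 13 of 82. Rspo3 (chr10:29452416-29535867, minus strand) showed the opposite order, with 36 of 82 lymphatic members and 1 of 13 others. Rspo3 held a UMI in 57.3% of the remaining cells, so that it was not particular to the lymphatic members. In cells thinned to 2000 UMIs each, Rspo3 was seen in 1 of 20 and 1 of 62 lymphatic members of replicates 1 and 2. Among thinned members without lymphatic rule genes, it was seen in 1 of 4 and 0 of 9. These counts are too few to tell whether the order holds at equal depth. Egfl7, a secreted protein of endothelium, was shared: it was detected in all 96 members, with between 4 and 79 UMIs in each.

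**Figure D3:**
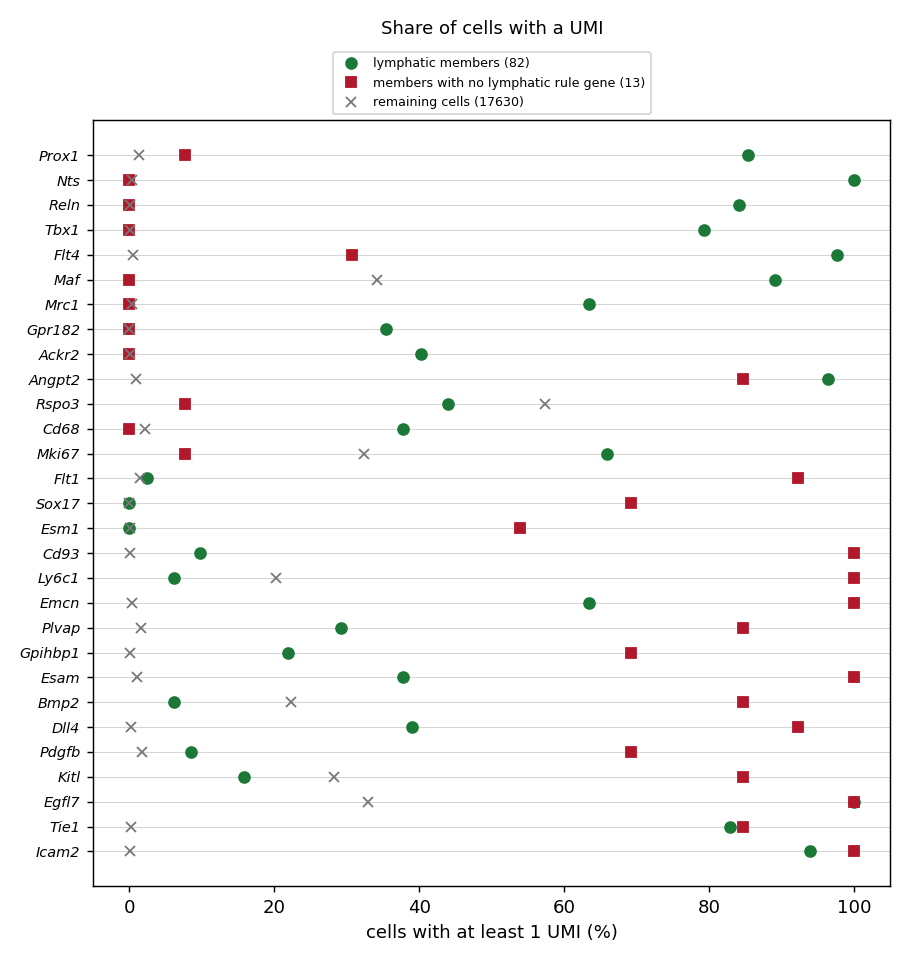
Share of cells with at least 1 UMI of 29 genes, in percent, in the 82 lymphatic members (circles), the 13 members with no lymphatic rule gene (squares) and the 17630 remaining stromal cells (crosses). Nts is at 100% in the lymphatic members and at 0 in the others with no lymphatic rule gene, Flt1 and Cd93 show the reverse order, and Egfl7 and Icam2 are high in both.

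Ccl21a (ENSMUSG00000094686, chr4:42772860-42773993, minus strand) divided the lymphatic members once more. It was detected in 66 of 82 lymphatic members, with up to 207 UMIs in a cell, and not in 16 (5 in replicate 1 and 11 in replicate 2). Prox1 was found in 56 of the 66 and in 14 of the 16, and Nts in all 66 and all 16, so that cells of both kinds carried lymphatic identity genes. Nts stood at 1214 and 851 CPM in the cells with Ccl21a and at 1572 and 1588 CPM in those without. Mrc1 was seen in 47 of the 66, at 119.8 and 174 CPM, and in 5 of the 16, at 15.7 and 70.7 CPM. Median depth was 14844 and 21211 UMIs in the cells with Ccl21a, and 12047 and 22733 UMIs in those without. Ccl21a has near-identical copies in the genome, of which Ccl21b and Ccl21c were at 0 here, and reads that match several copies may have been lost in counting.

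The next question was which genes outside the rule set the members apart from the rest of the assembloid stroma. For this, raw UMIs were summed in each library for 4 classes: the 96 members, 186 cells with at least 3 of 6 glia genes, 156 cells with at least 3 of 6 neuron genes, and the 17630 remaining cells. A cell was placed in the first of these classes whose rule it met, so that 30 cells of replicate 1 and 29 of replicate 2 that met both the glia and the neuron rule are counted as glia, and 1 member also met the glia rule. The 8 sums were compared with the quasi-likelihood test of edgeR, called at a Benjamini-Hochberg adjusted p under 0.05, and the p-values measure the spread between the sums of these 2 libraries. The tested genes were read from the same cells the rule had chosen, so the comparison describes what goes along with the rule genes and is no independent proof of cell identity. Against the remaining cells, 1964 of 10890 tested genes were called (18%), of which 1025 were higher (9.41%) and 939 lower (8.62%) in the members. Every count of list genes called against the remaining cells below is to be read beside these shares. The median log2 fold change over all tested genes was -0.02. Of the tested genes, 501 passed the filter on low counts (7.30 CPM in at least 2 of the 8 sums) only with the help of the members' own sums. For such genes a lower level in the members could hardly be found, and 286 of them were called higher, so counts and medians over lists that hold many of them are given as a description and support nothing. Fewer genes were called without the members of replicate 2 than without those of replicate 1. Each of these fits leaves a single sum of members, and the cause of the difference was not tested. Without the remaining cells of replicate 2, 1302 genes were called.

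Endothelial genes outside the rule were higher in the members nearly throughout. Of the 20 genes on this list, all of which could be tested, 19 were called higher and 0 lower, with a median log2 fold change of 7.90. Of the 20, 16 passed the filter only through the members' sums, Tie1 and Emcn among them. A lower level could hardly be found for these 16, so that their values are a description only. Egfl7 (ENSMUSG00000026921, chr2:26580014-26593120, plus strand) stood at 1379 and 1319.8 CPM in the members against 29.0 and 24.3 CPM in the remaining cells, a log2 fold change of 5.62 (SE 0.33, adjusted p = 1.84e-05, edgeR). Tie1, an endothelial receptor kinase, stood at 103 and 108 CPM against 0.0566 and 0.162 CPM (9.88, SE 0.53, adjusted p = 6.54e-05). Emcn, a sialomucin of the vessel lumen, stood at 170.2 and 94.7 CPM against 0.497 and 0.272 CPM (8.32, SE 0.47, adjusted p = 7.93e-05). Eng, a co-receptor for BMP ligands, had the smallest of the called differences at 1.99 (SE 0.27, adjusted p = 0.0015). Clec14a was the exception, with 5.01 and 7.84 CPM in members and 4.20 and 15.997 CPM in the remaining cells. In the sums of the members of replicate 1 alone, 16 of these 19 genes were called.

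Genes of this list share a short sequence in many of their promoters. Of the 19 called genes, 11 were matched to RefSeq promoter sequences (GRCm38.p6), with 15 transcription starts between them. The letters AGGAAG on either strand, the core of many binding sites of ETS transcription factors such as Erg, were found in the 250 bases before 10 of these 15 starts (66.7%). These 10 starts belong to 9 of the 11 genes, as some genes have several starts. Over the 32851 starts counted, which leave out 1 chromosome, the share was 29.5%. The letters AACAAT on either strand, the core of SOX sites, were found before 3 of 15 starts (20%) and before 9.42% of those counted. A match of letters is a description of the sequence and was not tested as a binding site. The promoters of Emcn (chr3:137340828-137341077, plus strand) and Flt1 (chr5:147726012-147726261, minus strand), 1 gene found in both groups of members and 1 found in the blood group, are shown because each holds the letters at 2 places, given in capitals (CTTCCT is the same motif on the other strand).
Emcn: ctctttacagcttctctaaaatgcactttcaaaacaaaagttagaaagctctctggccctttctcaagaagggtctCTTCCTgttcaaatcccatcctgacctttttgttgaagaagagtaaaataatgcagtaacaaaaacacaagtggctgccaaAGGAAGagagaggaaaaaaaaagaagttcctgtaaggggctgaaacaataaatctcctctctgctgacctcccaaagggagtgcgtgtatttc
Flt1: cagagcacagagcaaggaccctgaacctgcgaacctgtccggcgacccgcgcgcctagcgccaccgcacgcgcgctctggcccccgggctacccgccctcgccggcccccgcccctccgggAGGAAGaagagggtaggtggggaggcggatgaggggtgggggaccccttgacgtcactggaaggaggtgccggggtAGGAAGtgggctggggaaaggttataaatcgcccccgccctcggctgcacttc

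The lymphatic list behaved alike in the sums of all members, 82 of which were lymphatic. Of its 16 genes, 12 were tested, and 10 were called higher and 0 lower, with a median log2 fold change of 7.44. Of the 12, 8 passed the filter only through the members' sums: Ackr2, Flt4, Itga9, Nts, Prox1, Reln, Stab1 and Tbx1. A lower level could hardly be found for these 8, so that their values are a description only. Prox1 stood at 268 and 184 CPM against 0.598 and 1.16 CPM (7.93, SE 0.55, adjusted p = 4.6e-05 in edgeR), and Nts at 1184 and 877 CPM against 0.308 and 0.441 CPM (11.37, SE 0.34, adjusted p = 3.86e-06). Reln, at 110.1 and 82.3 CPM, was higher by 9.65 (SE 0.46, adjusted p = 9.61e-06). Itga9, an integrin of lymphatic valves, was higher by 5.16, and Nrp2, a co-receptor for VEGF-C, by 1.71. Pdpn, the podoplanin gene used to stain lymphatic vessels, stood at 345 and 193 CPM in members and at 261 and 255 CPM in the remaining cells (-0.02, adjusted p = 0.983), and 83.9% of the remaining cells held a UMI. Without the members of replicate 2, 9 of the 10 calls were kept and Nrp2 was lost.

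Among called genes whose log2 CPM in the members averaged 5 or more, with no overlap between the sums of members and remaining cells, the 20 with the largest positive fold changes held genes of both lists and others. This limit leaves out scarcer genes such as Sox17. Of the 20, all but Scn3a, which reached 7.58 and 21.7 CPM in neurons, lay below 7.30 CPM in the sums of every other class. These genes passed the filter on low counts only through the members' sums, so that a lower level could hardly be found for them. Myct1, a gene of endothelial cells, was the first of the 20 with 163 and 255 CPM against 0.0315 and 0.0956 CPM (11.66, SE 0.55, adjusted p = 1.68e-05, edgeR) and was detected in 88 members. Sox18, a transcription factor that acts before Prox1 in lymphatic development, was detected in 79 members (11.47), and Icam2, an adhesion molecule for leukocytes, in 91 members (11.25). The small GTPases Gimap1, Gimap4, Gimap5 and Gimap6, better known from lymphocytes, were among the 20 with log2 fold changes of 11.10, 11.01, 10.13 and 10.77, and with UMIs in 72, 74, 66 and 85 members. Ptprc, the pan-leukocyte gene, held 0 UMIs in the members. The other genes were Nts, Gpihbp1, Robo4, Ackr2, Adgrg3, Prkcq, Fam167b, Rasgrp3, Tbx1, Scn3a, Btnl9, Tie1 and Reln, with log2 fold changes between 9.65 and 11.37. Fam167b was found in 12 members and Gpihbp1 in 27, so that these differences rest on few cells.

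**Figure D4:**
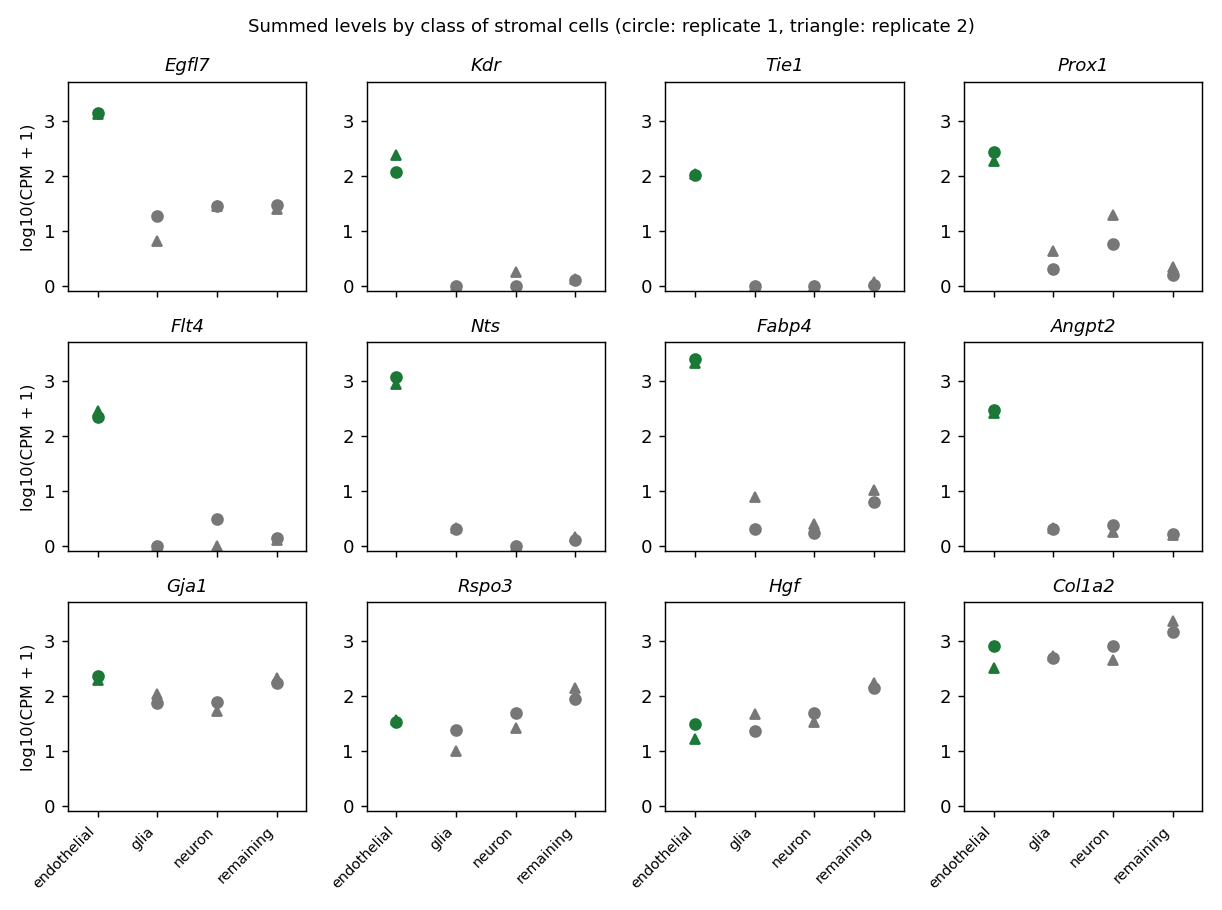
Levels of 12 genes as log10 of CPM + 1 in the summed cells of 4 classes (members, glia, neuron and remaining cells), with a circle for replicate 1 and a triangle for replicate 2. The first 8 genes are above all other classes in the members of both libraries, Gja1 lies at a like level in members and remaining cells, and Hgf, Rspo3 and Col1a2 are highest in the remaining cells.

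By the same rule, with the limit of 5 set on the remaining cells, the 10 genes with the largest negative fold changes were Gm12840, Prrx1, Bex1, Pamr1, Chodl, Cck, Mfap5, Crabp1, Arap2 and Saa3. Cck and Saa3 held 43 and 161 UMIs in the members, and the other 8 held 3 to 9 UMIs over both libraries, so that the size of their difference rests on few counts. Gm12840 and Pamr1 held 3 UMIs each, and the fitted log2 fold changes of the 8 genes with more than 3 UMIs lay between -4.74 and -3.67. Prrx1, a transcription factor of mesenchyme, stood at 5.01 and 3.27 CPM in the members against 119 and 75.7 CPM (-4.74, SE 0.64, adjusted p = 0.0014, edgeR). Cck, the gene of the peptide cholecystokinin, stood at 20.03 and 22.9 CPM against 408 and 321 CPM (-4.07, SE 0.27). Of 8 fibroblast markers, 5 were lower and 0 higher, among them the collagen gene Col1a2 at 816 and 323 CPM against 1440.1 and 2273 CPM (-1.79). Of these 5 calls, 0 were kept without the members of replicate 2, and 1 without the remaining cells of replicate 2. In single members, the fibroblast list took a median of 0.0746% (replicate 1) and 0.0641% (replicate 2) of UMIs, compared to 0.636% and 1.04% in the remaining cells. In 6 of 25 and 4 of 71 members, this share reached the 25th percentile of the remaining cells, and without these 10 members 2401 genes were called. Of the 8 fibroblast markers, 7 were lower without these members, and 7 were lower with the library as replicate block. The block added Col1a1 and Lum (adjusted p = 0.0087 and 0.0095, edgeR).

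The receptors through which vessels take up growth signals were higher, and the ligands were split. Of 11 receptor genes, 10 were tested, and 8 were called higher and 0 lower, of which Flt1, Flt4, Kdr, Tek and Tie1 passed the filter only through the members' sums. With at least 4 rule genes, Flt1 was no longer called and 1 receptor gene was lower, and without a filter on low counts 2 were lower. Kdr, the main VEGF-A receptor, stood at 115 and 234 CPM against 0.289 and 0.331 CPM (9.16, SE 0.48, adjusted p = 2.59e-05, edgeR), and Flt4 at 223 and 287 CPM against 0.422 and 0.265 CPM (9.51, SE 0.44). Calcrl and Ramp2, which together form the receptor of adrenomedullin, were higher by 2.07 and 3.26. Of the 8 receptor calls, 5 were kept without the members of replicate 2, and Nrp2, Ramp2 and Tek were lost. The co-receptor Nrp1 had 30.04 and 10.5 CPM in the members and 24.1 and 35.2 CPM in the remaining cells and was not called. Of the ligands, 4 of 10 tested were higher (Angpt2, Pgf, Adm and Angptl4) and 3 were lower (Vegfa, Vegfc and Vegfd). For the cells of the members' cluster, and likewise without the members rich in fibroblast RNA, 4 were higher and 5 lower. Without a filter on low counts, 4 were higher and 6 lower, and with at least 4 rule genes Angptl4 was no longer called. Angpt2 passed the filter only through the members' sums. Angpt2 (chr8:18690263-18741562, minus strand) stood at 290.4 and 259 CPM against 0.635 and 0.603 CPM (8.74, SE 0.22, adjusted p = 4.43e-07). Vegfa stood at 47.6 and 22.2 CPM against 123 and 91.1 CPM (-1.83, SE 0.31, adjusted p = 0.0046), and Vegfc, the ligand of Flt4, at 7.51 and 6.53 CPM against 31.1 and 35.2 CPM (-2.30). Without the members of replicate 2, Angpt2, Pgf and Adm were still called, and Angptl4 and the 3 lower ligands were not. Angptl4 and Vegfd also lost their calls without the members of replicate 1, Angptl4 without the remaining cells of replicate 1 and Vegfd without those of replicate 2.

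Genes known from sprouting tip cells were higher as a list, with 9 of 10 called higher and 0 lower, among them Angpt2, Cxcr4, Esm1 and Kcne3, which passed the filter only through the members' sums. Unc5b, a guidance receptor, stood at 103 and 142 CPM against 8.52 and 9.10 CPM (3.80, SE 0.25, adjusted p = 3.89e-05, edgeR), and Trp53i11 at 275 and 210 CPM against 6.73 and 3.82 CPM (5.47, SE 0.32). Esm1 (5.43) and Cxcr4 (7.96) were called as well, from UMIs in 7 and 9 of the 96 members. Both calls were lost, or the gene was no longer tested, at 5% mitochondrial UMIs and with at least 4 rule genes, and Esm1 also without the cells of the highest 10% of UMIs, for the cells of the members' cluster, without the members of replicate 2 and without the remaining cells of replicate 1. Apln, the ligand of the apelin receptor, stood at 20.03 and 24.8 CPM against 11.9 and 12.2 CPM (0.92, adjusted p = 0.0561). Arterial, capillary and venous genes were measured more sparsely: 3 of 4 tested arterial genes (Efnb2, Dll4 and Sox17), 3 of 7 capillary genes (Plvap, Gpihbp1 and Cd93) and 2 of 4 venous genes (Nr2f2 and Ephb4) were higher, and 0 genes of these lists were lower. Dll4, Sox17 and all 3 capillary genes called passed the filter only through the members' sums. With the library as replicate block, the capillary gene Aqp1 was called higher as well (adjusted p = 0.0188) and Sparcl1 lower (adjusted p = 0.0299). Of the 3 capillary and 3 arterial calls, Plvap and Dll4 alone were kept with at least 4 rule genes, a rule that leaves out the members without lymphatic rule genes. Neither venous call was kept without the members of replicate 1 or without the remaining cells of replicate 1 or 2, and of the arterial calls Efnb2 was lost without the remaining cells of either replicate, and Efnb2 and Sox17 without the members of replicate 2. Without the members rich in fibroblast RNA, and likewise without a filter on low counts, 2 capillary genes and 1 venous gene were called lower, as were 1 capillary gene for the cells of the members' cluster and 1 venous gene without the remaining cells of replicate 1. Sox17 had no UMI in the remaining cells. With 5 and 19 UMIs, the members stood 663- and 563-fold above a floor of 3 UMIs in the remaining cells of the same library. These ratios leave out the counting error of the members' own few UMIs. The venous markers Vwf, Selp and Ackr1 had 0 UMIs in the members, as had the capillary gene Car4.

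**Figure D5:**
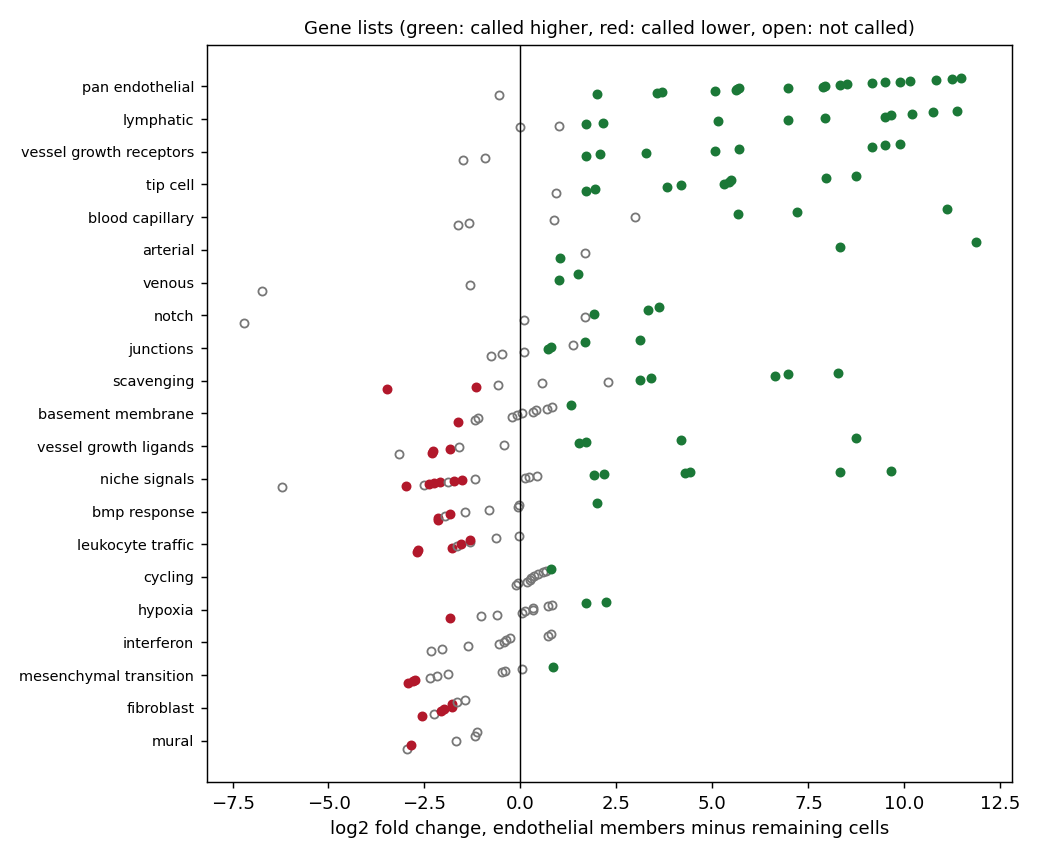
Log2 fold changes of single genes, members minus remaining cells, grouped by list, with filled points for genes called by edgeR (green higher, red lower) and open points for those not called. The called genes of the endothelial, lymphatic and receptor lists lie to the right of 0, with 1, 1 and 2 uncalled genes to the left, the fibroblast and BMP response lists lie mostly to the left, and the cycling genes lie close to 0.

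Signals that stroma sends to the crypt were higher for some ligands and lower for others. Of 26 such genes, 19 were tested, and 6 were higher and 6 lower in the members. More of them were lower in other settings, with 9 lower under the replicate block (Grem1, Cxcl12 and Igf1 in addition), 9 without the members rich in fibroblast RNA, 9 for the cells of the members' cluster and 10 without a filter on low counts, beside 5 or 6 higher. The higher ones were Reln, the Notch ligands Dll4 and Jag1, the nitric oxide synthase Nos3, and the growth factors Pdgfb and Tgfb1. Of these, Reln, Dll4 and Nos3 passed the filter only through the members' sums, so that a lower level could hardly be found for them. Tgfb1 stood at 233 and 274 CPM against 63.8 and 46.0 CPM (2.19, SE 0.22, adjusted p = 0.000307, edgeR). The lower ones were Rspo3, Wnt2, Wnt5a, Hgf, Bmp4 and Nrg1. Rspo3 stood at 32.5 and 35.9 CPM in the members against 88.4 and 137 CPM (-1.72, SE 0.42, adjusted p = 0.0221), Hgf at 30.04 and 15.7 CPM against 139 and 170.2 CPM (-2.98, SE 0.39, adjusted p = 0.0013), and Nrg1, a ligand of ErbB receptors, at 65.1 and 54.9 CPM against 241 and 256 CPM (-2.11). Bmp2 stood at 85.1 and 79.7 CPM against 68.5 and 69.0 CPM (0.22, adjusted p = 0.731) as a sum over all members, although most of it came from the 13 members without lymphatic rule genes. Grem1, a BMP antagonist, stood at 180.2 and 73.8 CPM against 665 and 654 CPM (-2.51, adjusted p = 0.0544) and was not called, but was lower with the library as replicate block (-2.66, adjusted p = 0.0058). Without the members of replicate 2, none of the 6 lower genes was called (4 of the 6 higher ones were), and without those of replicate 1 Rspo3 and Jag1 were not called.

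The response to BMP and Notch ligands was read from receptor and target genes. Of 9 tested genes of the BMP response, 1 was higher (Eng) and 3 were lower: the receptor Bmpr1a (-2.15, SE 0.33, adjusted p = 0.0027, edgeR), the inhibitor Smad7 (-2.15, SE 0.28) and the target gene Id3. Over all tested genes, 9.41% were called higher and 8.62% lower. The 1 of 9 higher is near the former share, and Eng was also counted in the endothelial list. Id3 stood at 325 and 235 CPM against 768 and 1137 CPM (-1.83, SE 0.30, adjusted p = 0.0041). The receptor Acvrl1 and the target Id1 were not called, at 108 and 39.9 CPM against 61.4 and 70.4 CPM, and at 67.6 and 81.0 CPM against 117 and 146 CPM. With the library as replicate block, 6 genes of this list were lower, as Id1 (adjusted p = 0.0137), Id2 and Bmper were called too. Of 6 tested Notch genes, the receptors Notch1 (1.92) and Notch4 (3.61) and the feedback inhibitor Nrarp (3.33) were higher, while Hes1, a general target, stood at 77.6 and 128 CPM against 93.9 and 104 CPM. Notch4 and Nrarp passed the filter only through the members' sums, so that a lower level could hardly be found for them. Nrarp was also lost without the members of replicate 1 and without the remaining cells of replicate 2, and Notch4 and Nrarp with at least 4 rule genes. Without the members of replicate 2, none of these 7 genes was called.

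Genes of fat handling and scavenging differed in both directions. Fabp4 (chr3:10204088-10208576, minus strand), a fatty acid binding protein of capillaries and adipocytes, stood at 2501 and 2148 CPM against 5.35 and 9.31 CPM (8.26, SE 0.45, adjusted p = 1.35e-05, edgeR), and was detected in 81 of 82 lymphatic members and 11 of the 13 others. Stab1 (6.96) and Mrc1 (6.62), which clear ligands from lymph, and the caveolar genes Cav1 (3.40) and Cav2 (3.10) were higher too. Fabp4, Stab1 and Mrc1 passed the filter only through the members' sums, so that a lower level could hardly be found for them. Lpl, the lipase that Gpihbp1 holds, was lower at 12.5 and 8.49 CPM against 77.7 and 131 CPM (-3.48, SE 0.59, adjusted p = 0.0047), as was the lipid droplet gene Plin2 (-1.16). The calls of Lpl, Plin2 and Cav2 were lost without the members of replicate 2. Fabp5 stood at 1157 and 1397 CPM against 466 and 53.0 CPM (2.29, adjusted p = 0.0805), and was called with the library as replicate block (2.75, adjusted p = 0.0145). The adipocyte regulator Pparg, at 12.5 and 9.80 CPM against 10.4 and 20.5 CPM, was not called.

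Barrier and matrix genes were read next. Of 8 tested junction genes, Tjp1 (1.67), F11r (3.12), Ctnnb1 (0.71) and Ctnnd1 (0.79) were higher, and Gja1, a gap junction gene, stood at 225 and 191 CPM against 167 and 209 CPM. Of 11 basement membrane genes, Lama4, a laminin chain of vessels, was higher at 235 and 214 CPM against 79.8 and 95.4 CPM (1.31, SE 0.22, adjusted p = 0.0044, edgeR), and Ecm1 was lower (-1.64). These 2 of 11 are a share like the 18% called over all tested genes, and with the library as replicate block Lamc1 was called higher and Sparc lower as well. Of 9 tested genes that guide leukocytes into tissue, 0 were higher and Icam1, Ccl7, Cxcl1, Il6 and Cx3cl1 were lower. Of these 5, 1 was still called without the cells of the highest 10% of UMIs (Icam1), 2 at 5% mitochondrial UMIs (Icam1 and Cxcl1) and 3 for the cells of the members' cluster (Cxcl1, Il6 and Cx3cl1). Icam1 stood at 30.04 and 19.6 CPM against 45.5 and 65.2 CPM (-1.30, SE 0.37, adjusted p = 0.0430). The selectin genes Sele and Selp and the gut addressin Madcam1 were at or below 1 UMI in each library of the members. Without the members of replicate 2, Tjp1 was still called and the other 10 of these 11 genes were not. Without the remaining cells of replicate 2, none of the 5 lower genes was called, and without the members of replicate 1 only Ccl7 was, while Ctnnb1 and Ctnnd1 were not called without the remaining cells of either replicate, and Ecm1 was lost there too.

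Of 10 cell cycle genes, Mcm6 was called higher in the summed levels and 0 were called lower, a share near the 9.41% called higher over all genes. Mki67, a marker of dividing cells, stood at 175 and 148 CPM against 133 and 111 CPM (0.36, adjusted p = 0.564, edgeR), and Mcm6, a replication helicase subunit, at 80.1 and 86.2 CPM against 47.8 and 46.5 CPM (0.80, SE 0.19, adjusted p = 0.0204). The call of Mcm6 was lost with at least 4 rule genes, without the members of replicate 2 and without the remaining cells of replicate 1 or 2. In cells thinned to 2000 UMIs each, at least 3 of 10 cell cycle genes were seen in 44% and 40.8% of members, 30.5% and 19.2% of remaining cells, 10.8% and 16.9% of glia and 17.4% and 4.60% of neurons. Within the members, this share was 45% and 46.8% in the lymphatic group, whereas 1 of 4 and 0 of 9 cells without lymphatic rule genes reached 3 genes. Mki67 itself was seen in 32% and 16.9% of thinned members (60% and 57.7% before thinning) and in 14.7% and 10.2% of thinned remaining cells (38.8% and 25.8% before).

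Interferon, hypoxia and mesenchymal transition genes were also counted against the 18% called over all genes. None of 9 tested interferon-induced genes was called against the remaining cells, and 1, Ifit3, was lower with the library as replicate block (adjusted p = 0.0371). Their levels differed between the 2 libraries: Bst2, for example, stood at 588 and 977 CPM in members and 263 and 622 CPM in remaining cells. Of 11 hypoxia genes, Ndrg1 (2.22) and Adm (1.71) were higher and Vegfa was lower, while the glycolysis gene Ldha stood at 1189 and 1043 CPM against 1262 and 748 CPM. Of 10 genes of mesenchymal transition, Snai2 (-2.93), Twist1 (-2.81) and Zeb2 (-2.75) were lower and Zeb1 was higher (0.84, SE 0.20, adjusted p = 0.0208, edgeR). Zeb2 alone was still called without the members of replicate 2, and Zeb1 was not called without the remaining cells of either replicate. The smooth muscle gene Acta2 stood at 7.51 and 19.6 CPM in members against 83.9 and 79.2 CPM (-2.35, adjusted p = 0.068), and was called with the library as replicate block (adjusted p = 0.0349).

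Markers of other cell types differed between lists in their level in the members. The leukocyte genes Ptprc, Adgre1, Tyrobp, C1qa and C1qb held 0 UMIs, and Cd68, a lysosomal gene of macrophages, was higher (3.77, adjusted p = 0.000393, edgeR) with UMIs in 31 of 82 lymphatic members and 0 of the 13 others. Cd68 passed the filter only through the members' sums, so that a lower level could hardly be found for it. Cx3cr1, a receptor of monocytes and macrophages, held 156 UMIs in 9 members, at 145 and 64.0 CPM against 99.0 and 106 CPM in the remaining cells, and Fcer1g held 15 UMIs in 4 members. Summed over the list, leukocyte markers reached 193 and 97.4 CPM in members and 109.6 and 120.1 CPM in remaining cells. Of 5 tested mural cell genes 0 were higher and Pdgfrb was lower (-2.84), a share near the 18% called over all genes. The call of Pdgfrb was lost without the members of replicate 2, and Kcnj8 and Notch3 were called lower as well with the library as replicate block. Epithelial markers summed to 82.6 and 7.19 CPM in members and 1410 and 161 CPM in remaining cells, and of these 7 genes 0 were called, or 6 lower with the library as replicate block. Neuron markers summed to 32.5 and 46.4 CPM in members against 23.9 and 23.4 CPM, higher in both libraries, and came from Tubb3 and Stmn2, while Elavl4, Elavl3 and Prph were at 0. Glia markers summed to 0 and 14.4 CPM in members against 4.88 and 3.23 CPM, higher in replicate 2 alone. Their part in the results was not tested. Gfap was the single glia gene that was called higher, from 6 UMIs in 1 cell that also met the glia rule. The lists of class II, mesothelial and platelet genes had 1 tested gene each, and 0 were called, or the mesothelial one (Krt19) with the library as replicate block. For the 102 cells of the members' cluster in place of the members, 8 of 9 leukocyte genes and the platelet gene were called higher.

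Glia and neurons are the other rare classes of the same libraries. They served to show which differences from the remaining cells were also found against these classes. The remaining cells are all cells left by the rules, and fibroblasts were not singled out among them. The epithelial gene Krt14, for example, held 101868 and 7151 UMIs in the remaining cells of replicates 1 and 2. The comparisons with glia and neurons use the same sums of the members as the one above. Against glia, 2165 of 10890 genes were called (19.9%), 1013 higher (9.3%) and 1152 lower (10.6%), and against neurons 2994 (27.5%), 1316 higher (12.1%) and 1678 lower (15.4%). The endothelial list had 19 of 20 tested genes higher in each, the lymphatic list 11 and 12 of 12 and the tip cell list 10 and 10 of 10. Of these, 16 endothelial, 8 lymphatic and 4 tip cell genes passed the filter only through the members' sums, so that these counts are a description only. Egfl7, at 17.6 and 5.51 CPM in glia and 26.9 and 27.1 CPM in neurons, was higher by 6.85 (SE 0.38, adjusted p = 6.01e-05, edgeR) and by 5.70 (SE 0.35, adjusted p = 6.99e-05). Pdpn, not called against the remaining cells, was higher than in glia (2.02, SE 0.31, adjusted p = 0.0027) and than in neurons (0.97, SE 0.29, adjusted p = 0.0381). Prox1, which some neurons also express, had 4.82 and 18.6 CPM in neurons and was higher in the members by 4.32.

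Several results took another form against these classes. Maf stood at 158 and 127 CPM in glia and did not pass the test there (0.27, adjusted p = 0.390), whereas it was higher than in neurons by 3.58. Bmp2 was higher in the summed members than in glia (1.56, SE 0.43, adjusted p = 0.0341, edgeR) and in neurons (1.85, SE 0.42, adjusted p = 0.0126). Of the members' 156 UMIs of Bmp2, 100 came from the 13 members without lymphatic rule genes. The 82 lymphatic members stood at 3.18 and 39.4 CPM, so that these differences do not describe them. Rspo3, lower than in the remaining cells, stood at 22.8 and 8.82 CPM in glia (1.14, adjusted p = 0.161) and at 48.9 and 24.8 CPM in neurons (-0.02, adjusted p = 0.988). Nrp1 was lower than in neurons, at 219.8 and 218 CPM there (-3.70, SE 0.46, adjusted p = 0.000982). Of the cell cycle genes, 2 of 10 were higher than in glia and 9 of 10 higher than in neurons. Basement membrane genes were split against glia, with 5 of 11 higher and 5 lower, among the latter Nid1 at 892 and 836 CPM in glia (-2.37), and 6 were higher and 1 lower against neurons. Without the members of replicate 2, 656 genes were called against glia and 763 against neurons. Without the glia of replicate 1 or 2 it was 1192 or 1136 genes, and without the neurons of replicate 2 it was 1677.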

How the data were processed

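Single-cell RNA-seq of 8 libraries (droplet 3' kit, 10x Genomics) was analysed from the UMI counts per gene and barcode that the authors deposited. Per the file headers the stromal counts came from Cell Ranger 6.0.1 and the epithelial counts from Cell Ranger 7.1.0, and the submitters' processing notes name Cell Ranger 6 and mm10. Whether intronic reads were counted is not given in the sources used here. The cell filter (500 genes, 10% mitochondrial UMIs) followed the study's methods, and left more stromal cells than the study states for its own filtered set. The members and all gene lists were chosen with earlier results of these data known.

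Raw UMIs were summed per library and class of cells, filtered with filterByExpr, scaled by TMM and tested with edgeR 4.0.16 (quasi-likelihood, R 4.3.3), without a block for the library. The Benjamini-Hochberg adjustment ran over all tested genes, and the 6 rule genes were left out of every count. A call is a two-sided adjusted p under 0.05, and SE is the standard error of a log2 fold change. The test was also run on simulated data, and the outcome is not given here. The genes named were the rule genes, members of the lists, and the 20 called genes with the largest positive and 10 with the largest negative fold changes against the remaining cells, with log2 CPM averaging 5 or more in the members (for the negative ones, in the remaining cells), no overlap between the sums, and no mitochondrial, ribosomal protein or immunoglobulin genes; other comparisons name list genes only. Clustering used Seurat 5.3.0 (SCTransform with regression of the mitochondrial share, CCA integration, 3000 features, 30 components, resolution 0.2). Both entries of Ccl21a in the files were added up for the rule and for the counts per cell, while its levels in CPM are those of a single entry. Gene positions are from GENCODE (GRCm38) and promoters from RefSeq (GRCm38.p6).

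Alternatives were a block for the library, DESeq2 1.42.0, no filter on low counts, stricter cell filters, a stricter rule, cells of the members' cluster, no cells of the highest depth, remaining cells of like depth and leaving out each library of a class. Leaving out members rich in fibroblast RNA was added after seeing the data. The same-numbered sums come from the same library, which pairs them. Their deviations from the class means correlated by 0.0427 to 0.0582 between members and other classes and by 0.262 to 0.355 between the other classes, over 10896 genes.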

Additional observations from a re-analysis of the deposited data

Results flagged for a closer look

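Cells that met the endothelial rule were also found outside the stromal libraries, in the assembloid epithelium: 10 of 29410 cells in replicate 1 and 9 of 7722 cells in replicate 2, whereas organoids without stroma and colon tissue had 0. Of these 19 cells, 14 held at least 2 lymphatic rule genes. Nts was detected in 14 of the 14, Prox1 in 9 and Flt1 in 0, and the epithelial gene Epcam in 12. The other 5 held no lymphatic rule gene, and Flt1, Cd93, Emcn and Plvap were each detected in 4 of the 5. Lymphatic genes outside the rule were seen among the 5 as well, with Nts in 3 (22 UMIs), Flt4 in 2, and Prox1, Reln and Tbx1 in 1 each. The 1 cell of replicate 2 held all UMIs of Prox1, Reln and Tbx1, 16 of Nts and 3 of Flt4. It held 0 of Flt1, Cd93 and Plvap. Each of the 4 cells of replicate 1 held Flt1, Cd93 and Plvap. Among these 4, Nts was seen in 2 (6 UMIs), Flt4 in 1, and Prox1, Reln and Tbx1 in 0. Fabp4 was seen in 4 of the 5. The part of free RNA or of mixed droplets in these cells was not tested.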

How the results depend on the processing

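The number of genes called against the remaining cells stayed within 1.5 times of 1964 under every alternative except leaving out single libraries, with 2857 genes without a filter on low counts, 2324 with the library as replicate block, 2317 with DESeq2, 1887 for members with at least 4 rule genes, 2193 for the cells of the members' cluster and 2195 for remaining cells of like depth. Leaving out 1 library of a class gave 363 to 1617 genes against the remaining cells, 656 to 1845 against glia and 763 to 2582 against neurons, with the lowest value each time without the members of replicate 2, where the single sum left is assumed to vary like the other classes. Against neurons, 1553 genes were called when cells had at most 5% mitochondrial UMIs. The cause of these losses was not tested beyond the smaller number of cells that each setting leaves. The replicate block, which pairs the sums of 1 library, gave 2383 genes against glia and 3229 against neurons, and lost no call of a named or listed gene. It added calls of 29 such genes against the remaining cells, 18 against glia and 13 against neurons, which are given beside the results where they change a statement. Gfap turned to -6.39 without the cells of the highest 10% of UMIs, and ranged from -6.78 (without the members of replicate 2) to 3.64 (without those of replicate 1) when 1 library of a class was left out. Kitl turned to -0.97 against neurons for members with at least 4 rule genes, a rule that leaves out the 13 members without lymphatic rule genes. The share of members in replicate 2 was 1.03% at 5% mitochondrial UMIs, and cells with at least 2 rule genes made up 0.0884% of the assembloid epithelium of replicate 1. Of 120 named genes called against the remaining cells, 107 kept their call with at least 4 rule genes, 104 without the members of replicate 1 and 59 without those of replicate 2. The 13 members without lymphatic rule genes had a median of 15023 UMIs, against 20249.5 in the lymphatic members.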
